A study of Mus musculus with 24 samples.

Results

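Nodal, Tdgf1, Lefty1 and Lefty2 encode a signalling ligand, its co-receptor and its secreted antagonists, and the occupancy of transcription pausing factors at these 4 genes was examined by chromatin immunoprecipitation and sequencing (ChIP-seq). The members were every row of 6 deposited peak lists that overlapped, by at least 1 bp, a fixed mm10 window around each gene. The windows were chr10:61412000-61430000 for Nodal, chr1:180925000-180943000 for Lefty1, chr1:180888000-180904000 for Lefty2 and chr9:110934000-110951000 for Tdgf1. They held 73 of the 1811308 listed regions, of which 14 lay in the Nodal window, 25 in the Lefty1 window, 23 in the Lefty2 window and 11 in the Tdgf1 window. The material was E14, an embryonic stem cell line of the mouse, cultured with serum and LIF. Its genotype is labelled Nelfb deg, which names Nelfb, the gene of 1 subunit of the negative elongation factor (NELF). Every library used here carried that genotype and the treatment label Control, and the protocol names DMSO and dTAG-13 as additions to the medium without saying which controls received DMSO. No wild-type cells are among these libraries. Chromatin was precipitated with an HA-tag antibody (2 libraries named NELFB:HA), with an antibody to NELFE, which is also part of NELF (2 libraries), and with an anti-DSIF antibody (2 libraries named SPT5, after a component of DSIF). The other 18 of 24 samples, 7 of them treated with 500 nM dTAG-13 for 30 min, are not analysed here. The labels do not say whether replicates came from separate cultures, so their spread may be technical.

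Nodal is a ligand of the TGF-beta family that binds activin receptors together with the co-receptor Cripto, the product of Tdgf1. The receptors phosphorylate SMAD2 and SMAD3, which enter the nucleus with SMAD4 and partners such as FOXH1 and switch on target genes. Nodal itself and its inhibitors Lefty1 and Lefty2 are among those targets, which gives the pathway both a positive and a negative feedback loop, and in pluripotent cells it is known for its part in the passage from the naive to the primed state. NELF and DSIF bind RNA polymerase II shortly after initiation and hold it near the gene start, and DSIF, unlike NELF, travels on with the polymerase after release. The title of the series names pausing and its place in pluripotency transitions as the question.

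The promoters of the ligand and of the co-receptor are shown because both lay inside regions called in all 6 libraries. They are the 250 bases before each RefSeq gene start on GRCm38.p6, the assembly also called mm10, read 5′ to 3′ in the direction of transcription. Nodal is on the plus strand (chr10:61417722-61417971) and Tdgf1 on the minus strand (chr9:110946159-110946408). The RefSeq promoter table matched these 2 of the 4 members. Capitals mark the motifs found.
Nodal: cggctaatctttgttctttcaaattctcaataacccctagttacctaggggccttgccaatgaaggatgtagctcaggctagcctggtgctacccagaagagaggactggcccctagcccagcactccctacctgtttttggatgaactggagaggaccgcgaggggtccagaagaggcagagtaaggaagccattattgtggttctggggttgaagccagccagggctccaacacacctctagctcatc
Tdgf1: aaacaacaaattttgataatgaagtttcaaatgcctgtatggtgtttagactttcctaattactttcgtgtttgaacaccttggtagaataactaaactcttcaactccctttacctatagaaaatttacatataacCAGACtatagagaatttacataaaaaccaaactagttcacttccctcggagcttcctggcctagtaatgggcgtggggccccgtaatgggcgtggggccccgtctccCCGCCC

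The motifs searched were TATAAA (the TATA box), GGGCGG (the GC box), CAGAC (a SMAD-binding element) and AATCCAC and AATACAC (forms of the FOXH1 core), on both strands of the 300 bases from 250 before to 50 after the start. Nodal held none of the 5. Tdgf1 held 1 CAGAC, at position −113 from the start, and 1 GGGCGG on the opposite strand, written CCGCCC, in the last 6 bases before the start. Of all 32851 promoters in the table, 13.6% held TATAAA, 35.7% GGGCGG, 49.6% CAGAC, 2.49% AATCCAC and 2.26% AATACAC. The Nodal promoter had a GC content of 54.0% and 5 CpG dinucleotides in those 300 bases, and the Tdgf1 promoter 41.7% and 7, against medians of 52.7% and 7 over all promoters. The Tdgf1 promoter was thus low in GC, with 13.4% of promoters lower, while its CpG number was at the median.

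Libraries held 27324697 to 62312558 filtered tags and 137102 to 462153 listed regions, most of them weak. A q-value of 0.01 or less, as deposited, marks strong regions here. Such regions made up 2.97% and 1.85% of the NELFB:HA lists, 5.52% and 5.42% of the NELFE lists and 1.51% and 6.08% of the SPT5 lists (replicates 1 and 2). In the 4 windows 28 of the 73 regions passed it and 45 did not. Tags were 50 bp long in the NELF libraries, each called against its own input, and 100 and 101 bp in the SPT5 libraries, called against the same input. In each comparison with SPT5 the antibody, the tag length and the input cannot be told apart. Folds below are the authors' ratios of ChIP coverage to local input. Ranks are by pileup, the deposited ChIP coverage of a region, within the library's own list.

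**Figure D1:**
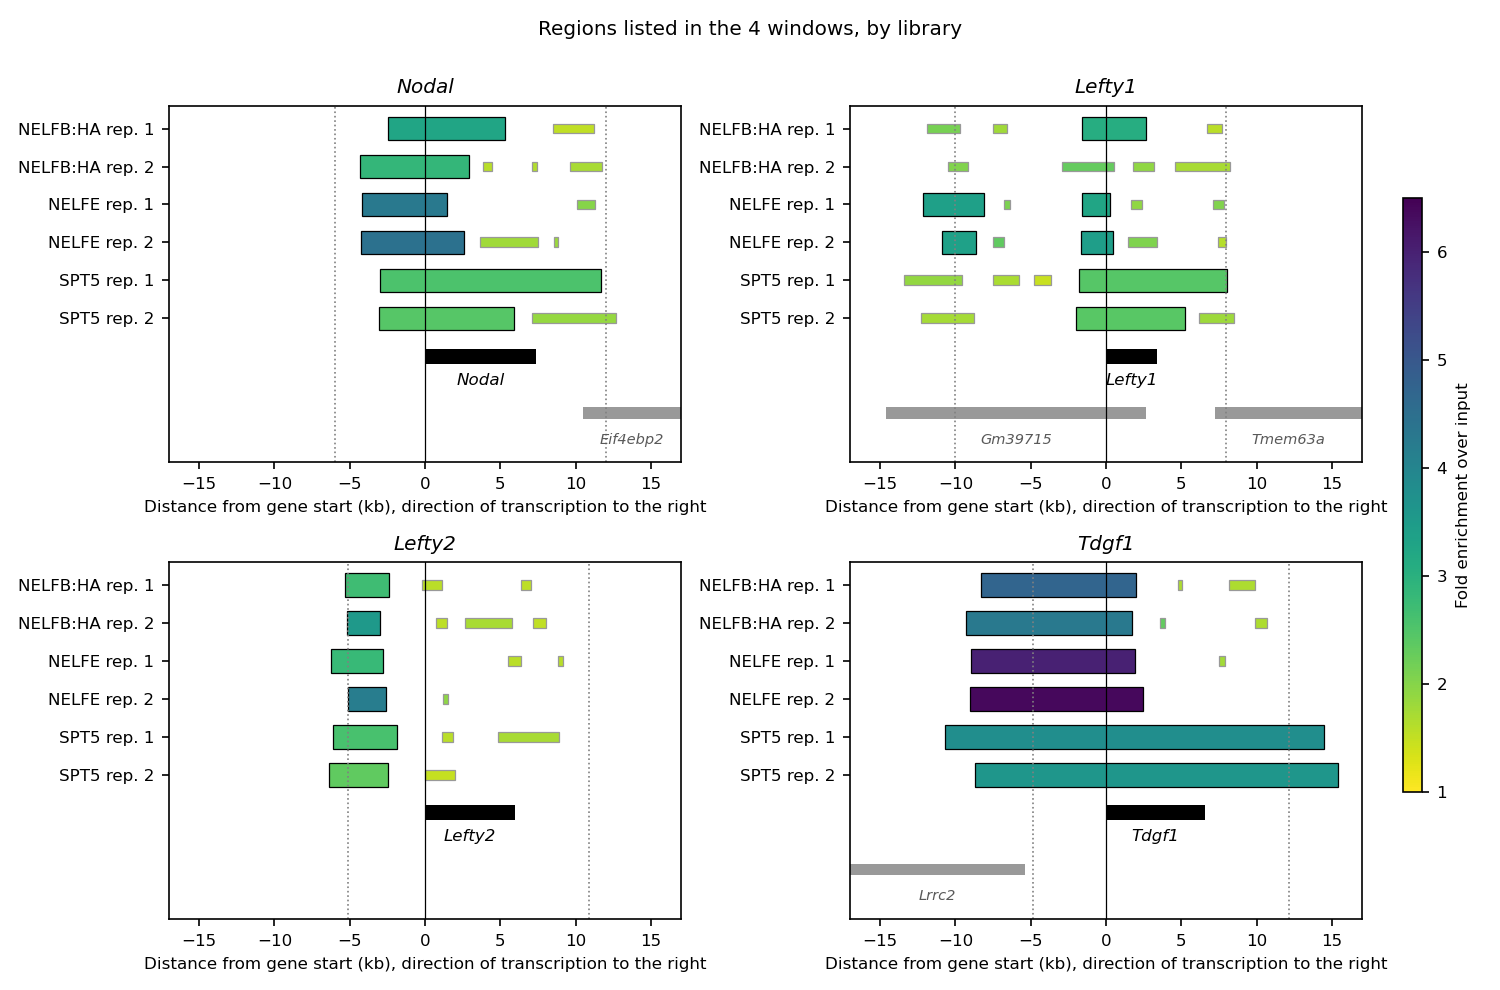
Listed regions at the 4 genes in each of the 6 libraries, against the distance from the gene start in kb with transcription to the right. Tall outlined bars are regions of q-value 0.01 or less, thin bars weaker ones, colour is the fold over input, dotted lines are the window edges, the black bar is the gene and grey bars are neighbouring genes. Of the 73 regions, 6 of the Lefty2 window are not drawn. Strong regions span the starts of Nodal and Tdgf1 in all 6 libraries and that of Lefty1 in 5, and those drawn at Lefty2 lie upstream of the gene.

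Nodal, the ligand (gene ID 18119, chr10:61417972-61425338), had exactly 1 strong region in every library, and it held the gene start each time. In NELFB:HA the region was 7774 bp long with a fold of 3.26 in replicate 1 and 7261 bp with a fold of 2.86 in replicate 2, ranking 6398 and 6208. In NELFE it was 5618 bp with a fold of 4.28 and 6887 bp with a fold of 4.45, ranking 6562 and 6816. In SPT5 it was 14669 bp with a fold of 2.57 and 8961 bp with a fold of 2.45, ranking 5588 and 4941. The NELFE libraries had the highest folds and the SPT5 libraries the lowest folds and the longest regions. All 6 strong regions shared a stretch of 3934 bp, chr10:61415495-61419428, from −2.48 to 1.46 kb around the gene start.

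The edges at Nodal differed more downstream than upstream. Upstream edges lay at −2.48 and −4.33 kb from the start in NELFB:HA, at −4.16 and −4.27 kb in NELFE and at −2.98 and −3.06 kb in SPT5. Downstream edges lay 5.30 and 2.93 kb after the start in NELFB:HA, 1.46 and 2.62 kb in NELFE, and 11.7 and 5.90 kb in SPT5. In SPT5 replicate 1 the region therefore ran past the end of Nodal into the 3′ end of Eif4ebp2, a translation repressor gene transcribed towards Nodal. In SPT5 replicate 2 that stretch was a separate weak region of 5582 bp with a fold of 1.87 and a q-value of 0.338. The NELF regions at Nodal were long for their kind. They ranked 98 of 10198 and 184 of 8291 by length among the strong regions of the NELFB:HA lists, and 192 of 11234 and 123 of 11770 in the NELFE lists.

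Tdgf1, which encodes the co-receptor Cripto (gene ID 21667, chr9:110939608-110946158), had the strongest regions of the 4 windows in all 6 libraries, again 1 strong region each. In NELFB:HA it had a fold of 4.73 and 4.27 and ranked 3637 and 3385. In NELFE it had a fold of 5.99 and 6.39 and ranked 4441 and 4210. In SPT5 it had a fold of 3.81 and 3.6 and ranked 1502 and 1719. The fold again was highest in NELFE and lowest in SPT5, and no library of an antibody overlapped those of another. This order was not particular to the locus, since the median strong region of the whole lists had folds of 4.56 and 4.70 in NELFE, 4.06 and 3.61 in NELFB:HA and 3.11 and 2.89 in SPT5.

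The Tdgf1 regions were very long in all libraries. Their lengths were 10275 and 11049 bp in NELFB:HA, 10901 and 11496 bp in NELFE and 25144 and 24102 bp in SPT5. Among strong regions of their own lists the NELF ones ranked 15, 18, 7 and 10 by length, where the median strong region of the 4 lists measured 1689.5 to 2323 bp. The SPT5 ones ranked 39 of 6978 and 73 of 8329. The stretch strong in all 6 libraries was chr9:110944443-110954463, 10021 bp from −8.30 to 1.72 kb around the Tdgf1 start. It also held the start of Lrrc2, a leucine-rich repeat gene transcribed the other way, whose first base lies 5387 bp from that of Tdgf1. The region at Tdgf1 can therefore not be assigned to the Tdgf1 start alone. In the direction of Tdgf1 the NELF regions ended 1.97, 1.72, 1.95 and 2.45 kb into the gene. The SPT5 regions ended 14.5 and 15.4 kb from the start, beyond the 6551 bp of the gene.

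Lefty1, a secreted antagonist that blocks Nodal and its co-receptor (gene ID 13590, chr1:180935022-180938401), had a region over its start in all 6 libraries, strong in 5. The tables used give no strand for the Lefty genes, which are taken here as transcribed towards higher coordinates. In NELFB:HA the region had a fold of 3.08 and a q-value of 4.03e-06 in replicate 1 and a fold of 2.31 and a q-value of 0.0149 in replicate 2. In NELFE it had a fold of 3.27 and 3.44, with q-values of 2.37e-07 and 1.61e-06. In SPT5 it had a fold of 2.45 and 2.42, with q-values of 0.00986 and 0.000217. NELFB:HA replicate 2 is thus the library that falls short of the threshold, and SPT5 replicate 1 passes it narrowly. The ranks were 8273 and 9980 in NELFB:HA, 7287 and 9067 in NELFE and 6000 and 5595 in SPT5.

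The start-spanning region at Lefty1 differed in extent. It was 4220 and 3467 bp long in NELFB:HA, 1883 and 2094 bp in NELFE and 9836 and 7238 bp in SPT5. In NELFE it ended 0.281 and 0.451 kb into the gene, whereas in SPT5 it ran 8.05 and 5.25 kb from the start, past the 3380 bp of the gene. In SPT5 replicate 1 it reached the 5′ end of Tmem63a, a membrane protein gene that starts 3885 bp beyond Lefty1. A further region lay upstream, from −12.2 to −8.13 kb in NELFE replicate 1, within the long noncoding RNA gene Gm39715, which also overlaps Lefty1. It was strong in both NELFE libraries, with a fold of 3.39 and 3.36, and had folds of 2.14 and 2.04 in NELFB:HA and of 1.90 and 1.75 in SPT5 with q-values of 0.064 to 0.257. Reads within the Lefty coding parts carry a further limit: Lefty1 and Lefty2 are close paralogs, and how reads matching both were treated is not given in the sources used here.

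Lefty2, the other antagonist (gene ID 320202, chr1:180893108-180899107), had no strong region over the gene in any of the 6 libraries. The region of highest pileup among those touching the gene had a fold of 1.58 and 1.56 in NELFB:HA, 1.56 and 1.94 in NELFE and 1.58 and 1.49 in SPT5, and no region touching the gene had a q-value below 0.703. Its start lay in a listed region in NELFB:HA replicate 1 only. Over all protein-coding genes, 48.3% had no strong region over the gene in any library.

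Upstream of Lefty2 a region was strong in all 6 libraries, and the stretch common to them was chr1:180888011-180890105, 2095 bp from −5.1 to −3.0 kb, which no gene of the RefSeq table overlaps. Its fold was 2.71 and 3.55 in NELFB:HA, 2.80 and 4.19 in NELFE and 2.60 and 2.34 in SPT5. Its length was 2903 and 2165 bp in NELFB:HA, 3426 and 2488 bp in NELFE and 4227 and 3887 bp in SPT5. The folds of replicates differed by more here than at Nodal or Tdgf1, with replicate 2 above replicate 1 for both NELF subunits.

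Regions of Lefty1 and Lefty2 came close to the threshold. Inside it were SPT5 replicate 1 at the Lefty1 start (q-value 0.00986) and upstream of Lefty2 (0.00256), and outside it was NELFB:HA replicate 2 at the Lefty1 start (0.0149). The 45 weak regions of the 4 windows had folds of 1.47 to 2.39, with a median of 1.75, and a median length of 1234 bp.

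**Figure D2:**
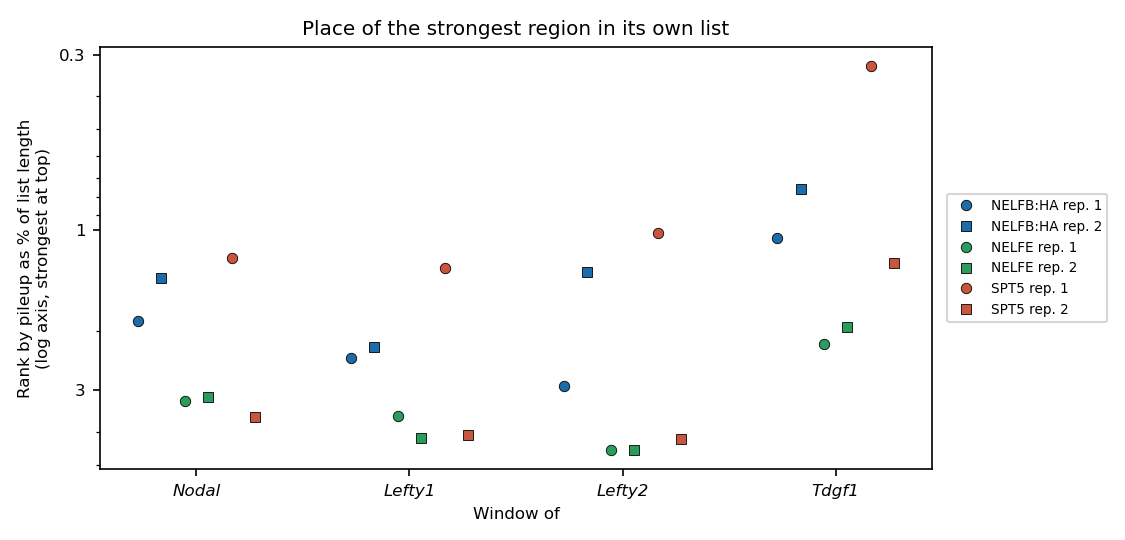
Rank by pileup of the strongest region in each window (at Lefty2, the upstream region), as a percentage of the length of that library's list (log axis, strongest at the top), with a point for each of the 6 libraries. The Tdgf1 points lie at 0.325% to 2.18%, and those of the other windows at 1.02% to 4.52%.

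Within each list Tdgf1 ranked first of the 4 windows, in 6 of 6 libraries, while the order of the others changed between libraries. As a percentage of list length, the leading Tdgf1 region stood at 1.06% and 0.756% in NELFB:HA, 2.18% and 1.94% in NELFE and 0.325% and 1.25% in SPT5. Nodal stood at 1.86% and 1.39%, at 3.22% and 3.14%, and at 1.21% and 3.6% in the same order. Lefty1 stood at 2.41% and 2.23%, at 3.58% and 4.18%, and at 1.30% and 4.08%. The upstream region of Lefty2 stood at 2.92% and 1.33%, at 4.51% and 4.52%, and at 1.02% and 4.18%. It came second in 2 libraries and last in the other 4, and the order below Tdgf1 differed between the replicates of NELFB:HA and of SPT5. The SPT5 lists held 462153 and 137102 regions, and the part of list length in these percentages was not tested. Most listed regions are weak, and strong ones made up only 1.51% to 6.08% of the lists. Against the median fold of the strong regions in the same list, the fold at Tdgf1 was higher in all 6 libraries. The folds at Nodal, at the Lefty1 start and upstream of Lefty2 were lower than that median in all 6.

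Coverage was compared between antibodies to ask whether NELF and DSIF occupied the same stretch of each locus. The measure was the number of bp of the window covered by strong regions, with 2 libraries per antibody. At Tdgf1, SPT5 covered all 17001 bp of the window in both libraries, while NELFB:HA covered 6812 and 6558 bp and NELFE 6796 and 7293 bp. NELFB:HA minus SPT5 was −10316 bp there (pooled SD 127) and NELFE minus SPT5 −9956.5 bp (pooled SD 248.5), with SPT5 the longer in both. These sizes and their SDs are set by the window, which SPT5 fills and which also cuts the NELF regions. They became −8316 and −7956.5 bp with the window narrowed by 2 kb at each end, and −12316 and −11956.5 bp with it widened. The uncut regions given above measured 25144 and 24102 bp in SPT5 and 10275 to 11496 bp in the NELF libraries. At Nodal, NELFB:HA covered 7774 and 7261 bp, NELFE 5618 and 6887 bp and SPT5 14669 and 8961 bp. NELFB:HA minus SPT5 was −4297.5 bp (pooled SD 2865.5) and NELFE minus SPT5 −5562.5 bp (pooled SD 2923.7). At Lefty1, NELFB:HA covered 4220 and 0 bp, NELFE 3775 and 3467 bp and SPT5 9763 and 7238 bp. NELFB:HA minus SPT5 was −6390.5 bp (pooled SD 2458.9) and NELFE minus SPT5 −4879.5 bp (pooled SD 1271.9). The NELFE totals there include the separate upstream region, and SPT5 replicate 1 reaches Tmem63a. Gm39715 also overlaps the Lefty1 start, so this coverage cannot be assigned to Lefty1 alone. At these 3 genes both SPT5 libraries lay above all 4 NELF libraries.

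At Lefty2 the antibodies were close, counting every strong region of the window. NELFB:HA covered 4603 and 2106 bp, NELFE 2435 and 2505 bp and SPT5 3223 and 2648 bp. The gap of NELFE to SPT5 was −465.5 bp and exceeded the pooled SD, 289.6 bp. NELFB:HA minus SPT5 was 419 bp, within its pooled SD of 1281.2 bp. Between the NELF subunits the difference (NELFB:HA minus NELFE) was 1265 bp at Nodal (pooled SD 684.4), −1511 bp at Lefty1 (pooled SD 2115.6), 884.5 bp at Lefty2 (pooled SD 1249.0) and −359.5 bp at Tdgf1 (pooled SD 279.1). It exceeded the pooled SD at Nodal (libraries apart) and Tdgf1 (libraries overlapping) and lay within it at both Lefty genes. At Lefty1 this depended on the window: widened by 2 kb at each end, which takes in more of the upstream NELFE regions, the difference was −2949.5 bp (pooled SD 2228), and narrowed by as much it was 121.5 bp.

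Of these 12 comparisons, 9 exceeded their pooled SD and 8 showed no overlap between the libraries of the 2 antibodies. For each of those 8 the two-sided exact permutation test gave p = 0.333, below which a design of 2 and 2 libraries cannot go, and a Benjamini-Hochberg adjusted p of 0.5 over the 12 tests. No comparison could therefore pass a 0.05 threshold, and the sizes above stand against replicate spread only. The share of all genes with such gaps between 2 antibodies was not computed. Whether 9 and 8 of 12 are many is therefore not known here. The result at Nodal and Lefty1 rests on SPT5 replicate 1 passing the threshold, with q-values of 0.00129 and 0.00986. At a q-value of 0.001 or less that library covers neither gene, and NELFB:HA minus SPT5 at Nodal turns to 3037 bp, NELFE minus SPT5 at Nodal to 1772 bp and at Lefty1 to 2 bp. The Tdgf1 regions of all 6 libraries pass that limit.

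**Figure D3:**
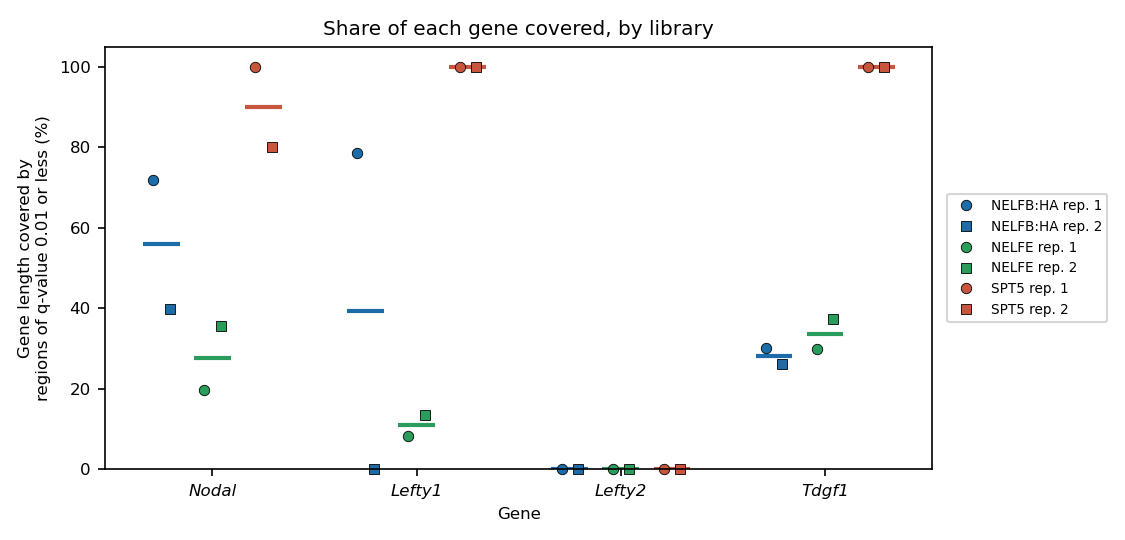
Percentage of each gene, from end to end, covered by regions of q-value 0.01 or less, with a point for each library and a bar at the mean of the 2 libraries of an antibody. The SPT5 points lie at 80.1% to 100% at Nodal, Lefty1 and Tdgf1 and above every NELF point, and all points are at 0% at Lefty2.

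Counted over the genes themselves, a measure chosen after the regions were seen, SPT5 again lay highest. Strong NELFB:HA regions covered 71.9% and 39.8% of Nodal, strong NELFE regions 19.8% and 35.5%, and strong SPT5 regions 100% and 80.1%. The Lefty1 values for NELFB:HA were 78.6% and 0%, those for NELFE 8.34% and 13.4%, and both SPT5 libraries reached 100%. At Tdgf1 they were 30.1% and 26.2%, 29.8% and 37.4%, and 100% in both SPT5 libraries. Both SPT5 libraries thus covered more of the gene than all 4 NELF libraries in each of the 3 members that had a strong region. Among 11310 protein-coding genes with a strong region in any library this held for 15.3%, and the reverse order for 11.9%. With 5 kb added on each side it held for 3 of 4 members, Lefty2 being the exception, against 16.8% of 12121 genes, and the reverse for 11.3%. The members were not tested against these shares.

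Over all 21883 protein-coding genes, 29.9% were overlapped by a strong region in all 6 libraries. Nodal and Tdgf1 were among them, Lefty1 in 5 libraries and Lefty2 in none, which gives 2 of 4 members. By antibody, a strong region in both libraries overlapped 2 of 4 members in NELFB:HA (37.6% of all genes), 3 of 4 in NELFE (44.3%) and 3 of 4 in SPT5 (32.2%). With 5 kb added on each side of the gene, the count became 3 of 4 members through the upstream region of Lefty2, against 33.5% of all genes. By antibody it was then 3 of 4 in NELFB:HA (41.5%), 4 of 4 in NELFE (48.3%) and 4 of 4 in SPT5 (35.8%).

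The other genes of the pathway were taken from a list of 30, of which 20 had a gene start in the promoter table, and promoters were the 1 kb on each side of a start. Of the 20 promoters, 6 had a strong region in both NELFB:HA libraries, 7 in both NELFE libraries and 5 in both SPT5 libraries. Over all 27025 genes with a listed start the shares were 27%, 31.8% and 23% in that order, close to those of the list (30%, 35% and 25%). In all 6 libraries 5 of the 20 promoters were strong, against 21.6% of all, and 7 had no strong region in any library, against 63.1%.

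The 5 were those of the type I receptor Tgfbr1, the type II activin receptor Acvr2a and the nuclear repressors or corepressors Ski, Tgif1 and Drap1. The other listed receptors, Acvr1b, Acvr1c and Acvr2b, did not have a strong promoter in all 6 libraries. The promoters ranked highest by pileup were, in order, Tgfbr1, Ski, Acvr2a, Drap1, Tgif1 and Acvr2b. At Tgfbr1 the fold was 10.6 and 6.48 in NELFB:HA, 6.69 and 7.67 in NELFE and 4.15 and 3.59 in SPT5. At Ski, which represses SMAD complexes, it was 4.61 and 3.39, 5.97 and 5.17, and 4.07 and 4.18 in the same order. Those at Acvr2a were 4.40 and 4.46, 3.64 and 7.63, and 3.99 and 4.82. Drap1, a corepressor known to limit Nodal signalling through FOXH1, had folds of 6.9 and 4.2, 5.32 and 6.12, and 3.03 and 3.15. Tgif1, a SMAD corepressor, had 3.13 and 2.36, 3.45 and 3.98, and 3.56 and 2.88. Acvr2b, another type II receptor, had 2.26 and 2.54, 2.86 and 3.92, and 2.1 and 2.13, and was strong in 3 libraries. Placed into this list by mean percentile over the 6 libraries, Tdgf1 came second of 21 and Nodal sixth of 21.

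**Figure D4:**
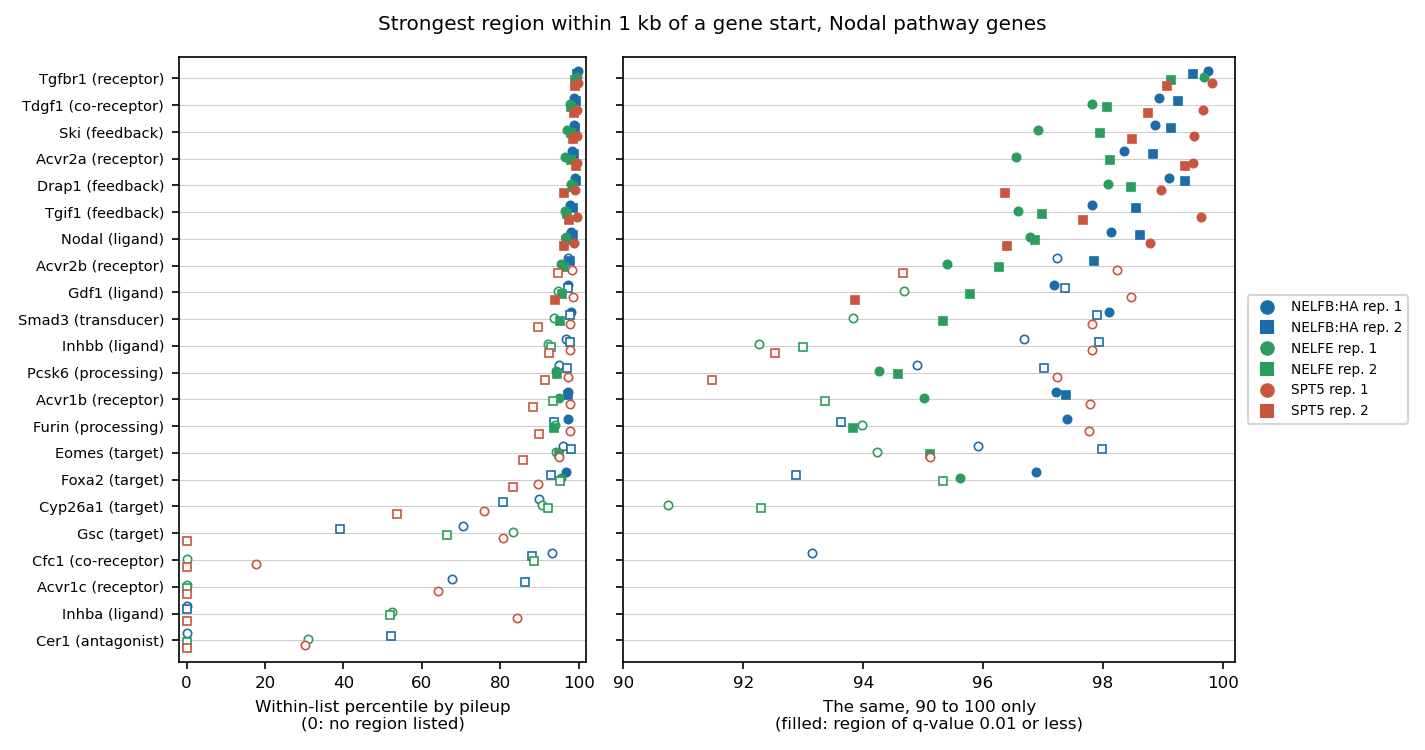
Within-list percentile by pileup of the strongest region within 1 kb of a gene start, for the 20 listed pathway genes with a start and for Nodal and Tdgf1, by library. Filled points are promoters with a region of q-value 0.01 or less, and the right panel repeats the range from 90 to 100. Nodal, Tdgf1 and 5 of the 20 listed genes are filled in all 6 libraries, and 7 listed genes in none.

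By role, 3 of 5 receptors had a strong promoter in both NELFB:HA libraries (27% of all promoters), 3 of 5 in both NELFE libraries (31.8%) and 2 of 5 in both SPT5 libraries (23%). The repressors with a start had one in 3 of 3 cases for each antibody. The other ligands with a start, Gdf1, Inhba and Inhbb, had none in both libraries of any antibody, and likewise the co-receptor Cfc1, the antagonist Cer1 and the 4 embryonic target genes with a start. The 7 promoters with no strong region in any library were those of Acvr1c, Cfc1, Inhba, Inhbb, Cer1, Gsc and Cyp26a1. Counted over the whole gene with 1 kb on each side, which needs no start and was added after the starts were seen, 12 of the 30 genes had a strong region in both NELFB:HA libraries, 14 in both NELFE libraries and 11 in both SPT5 libraries. The shares of protein-coding genes were 38.3%, 45.1% and 32.8%. In all 6 libraries it was 10 of 30 (30.7% of protein-coding genes), and in no library 10 of 30 (47.6%). Of the 4 transducers downstream of Nodal, Smad2, Smad4 and Foxh1 then had a strong region in all 6 libraries and Smad3 in 2. The inhibitory Smad7 and the ligand gene Gdf3 also had one in all 6. Ldlrad4 and Mixl1 were among those with none.

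Marker genes of the labelled cell type and of other cell types were looked up, on promoters for the pluripotency genes and over the whole gene for the rest. Of the rest, 2 of 4 fibroblast markers and 0 of 4 primitive endoderm markers had a start in the promoter table. Of 7 pluripotency genes, Pou5f1, Sox2, Klf4, Zfp42 and Tfcp2l1 had strong promoters in all 6 libraries, Nanog in 2 libraries and Esrrb in none, although Esrrb had a strong region over the gene in all 6. Of all promoters, 21.6% were strong in all 6 libraries. Over the whole gene with 1 kb on each side, the fibroblast markers Col1a1, Col1a2, Thy1 and Twist2 had no strong region in any library. The same held for 47.6% of protein-coding genes. The 4 primitive endoderm markers had strong regions in 2 to 4 libraries each. All 4 had one in both NELFE libraries (45.1% of protein-coding genes), and none had one in both SPT5 libraries (32.8%). The markers were not tested against these shares.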

How the data were processed

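ChIP-seq peak lists of 6 control libraries were used, and groups and replicate numbers came from the sample titles. Per the file headers, the authors called broad regions with MACS 2.1.1.20160309 on each library against an input, without pooling, at p-value cutoffs of 0.01 (strong) and 0.1 (weak), with tags extended to 227 bp (NELF) or 206 bp (SPT5) and duplicates limited to 1 tag per position. The submitters' processing notes name Bowtie2, deepTools, MACS2 and mm10. Per the file headers, MACS scaled whichever of the ChIP and input data was larger down to the other, so the deposited pileup, a coverage signal, was used only to rank regions within a list. The deposited fold enrichment is the ratio to local input background. Significance was deposited per region as −log10 of the p-value and of the q-value. MACS writes these and the pileup of a broad region as means over the region, which the headers do not state. How far the threshold and the ranks depend on region length was not tested. A header line states that q was left uncalculated, yet no list has a negative entry in that column, and its entries served as q-values here.

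Only assembled chromosomes were used, with coordinates counted from 1. Covered bp, ranks and overlaps with RefSeq genes of GRCm38.p6 were computed with Python 3.11.15, pandas 2.3.3 and numpy 2.4.6, and figures with matplotlib 3.10.9. Antibodies were compared over libraries by two-sided exact permutation tests with Benjamini-Hochberg adjustment over 12 tests, and the functions were tested on simulated data. The leading region is the one of highest pileup in a window. The pathway genes given with folds are the 6 with the highest mean percentile, and those with no strong region in any library are named without folds. The members, the gene list and the tests were chosen with earlier results of these data known. Some results of the Lefty2 window and of the pathway list are not reported here. Exon and UTR annotation was not used here.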

Additional observations from a re-analysis of the deposited data

How the results depend on the processing

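For 12 coverage differences, 12 leading-region percentiles and 3 pathway counts, 178 alternatives were computed. Because 0.333 is the lowest exact p that 2 against 2 libraries permit, a test that keeps its outcome says nothing about stability. The lists give no coverage outside their regions, so a weak region and an unlisted one cannot be compared by depth. At Nodal no alternative but the stricter q-value turned a comparison with SPT5. At Tdgf1, SPT5 fills the window, so its differences move with the window edges, from −8316 to −12316 bp for NELFB:HA minus SPT5, and an unchanged direction there shows no stability. With the q-value limit at 0.001, the covered length reversed for Nodal to 3037 bp (NELFB:HA minus SPT5) and 1772 bp (NELFE minus SPT5), for Lefty1 to 2 bp (NELFE minus SPT5) and for Lefty2 to −1417 bp (NELFB:HA minus NELFE), −271 bp (NELFB:HA minus SPT5) and 1146 bp (NELFE minus SPT5), since single regions leave the count. With every listed region, NELFB:HA minus NELFE reversed to 1661.5 bp at Lefty1 and 1022 bp at Tdgf1, and NELFB:HA minus SPT5 to −1601.5 bp at Lefty2. With the window widened by 2 kb, NELFB:HA minus NELFE at Lefty1 was −2949.5 bp, beyond its pooled SD of 2228 bp. With the window narrowed by 2 kb, NELFB:HA minus NELFE reversed to 121.5 bp at Lefty1 and −14.5 bp at Lefty2, and NELFB:HA minus SPT5 to −540.5 bp at Lefty2. Keeping only regions with at least 50% of their length inside the window reversed the Lefty2 values to −9 bp (NELFB:HA minus NELFE) and −540.5 bp (NELFB:HA minus SPT5), since regions that lie mostly beyond the window edge drop out.

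Leaving out each replicate number gave, for NELFB:HA minus NELFE, 374 to 2156 bp at Nodal, −3467 to 445 bp at Lefty1, −399 to 2168 bp at Lefty2 and −735 to 16 bp at Tdgf1. For NELFB:HA minus SPT5 it gave −6895 to −1700 bp, −7238 to −5543 bp, −542 to 1380 bp and −10443 to −10189 bp in the same order. For NELFE minus SPT5 it gave −9051 to −2074 bp, −5988 to −3771 bp, −788 to −143 bp and −10205 to −9708 bp. With 1 library per antibody the pathway counts were 7 to 10 (NELFB:HA), 9 to 11 (NELFE) and 5 to 6 (SPT5), and were 12, 14 and 11 of all 30 genes with the whole gene in place of the promoter.

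The replicate block leaves each difference as it is, for example −10316 bp for NELFB:HA minus SPT5 at Tdgf1, and its exact sign-flip test cannot fall below 0.5. The labels do not say that equal numbers mark a shared culture. Over 5824 promoters strong in all libraries, same-numbered deviations correlated at 0.0289 between the NELF antibodies, at −0.141 between NELFB:HA and SPT5, and at −0.0665 between NELFE and SPT5. Crossing the numbers of NELFB:HA and SPT5 was chosen after seeing this. Crossed or not, 0 of 4 tests fell below 0.05, which the floor of 0.5 fixes in advance, so this says nothing about the pairing.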
